A study of Homo sapiens with 4 samples.

Results

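The genes described here encode the machinery that copies DNA. They were the 47 protein-coding genes whose symbols name an ORC, MCM, GINS, RFC or RPA subunit, a subunit of DNA polymerase alpha, delta or epsilon or of primase, or are CDC6, CDT1, CDC45, CDC7, GMNN, PCNA, FEN1 or LIG1. They were taken from 58051 genes in each file, of which 19737 were protein-coding in GENCODE 29, and all 47 were tested. PolyA RNA was sequenced from A549 cells, a long-established line from a human lung carcinoma. In the plus Dox group, 2 libraries came from cells given 1 µg/mL doxycycline. In the minus Dox group, 2 libraries came from cells without treatment. The cells of all 4 libraries carried a doxycycline-inducible A-FOS gene, which the titles call a knock-in and the design text describes as placed at random sites by piggyBac transposase, so neither group lacked the insert. A-FOS is a dominant-negative FOS that pairs with JUN proteins and keeps these AP-1 factors off DNA. The sources used here give neither the duration of induction nor whether the cells were a clone or a pool. No group had doxycycline without A-FOS, so the drug and the protein cannot be told apart. The labels do not say that the libraries came from separate cultures, so the p-values reflect the spread among these samples alone, and that spread may be technical.

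DNA replication starts at origins marked by the ORC complex. In G1 phase, CDC6 and CDT1 help ORC load the ring-shaped MCM2 to MCM7 helicase, a step called licensing, which geminin (GMNN) blocks by binding CDT1. In S phase the kinase CDC7, CDC45 and the GINS complex turn the loaded ring into an active helicase, polymerase alpha with primase lays down primers, and polymerases epsilon and delta extend them on the clamp PCNA, which RFC loads. RPA coats the single strands, and FEN1 and LIG1 finish the lagging strand. Many of these genes are textbook targets of E2F transcription factors, which are released from RB proteins as cells commit to S phase.

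Most of the replication genes that differed were lower in plus Dox. Of the 47, 27 fell, 7 rose and 13 did not pass edgeR's quasi-likelihood test at a Benjamini-Hochberg adjusted p of 0.05. That is 57.4% that fell and 14.9% that rose, against 28.4% and 28.4% of all 18046 tested genes, 56.9% of which changed in either direction. Levels are CPM, a gene's count relative to its library's total, scaled by TMM, a factor that assumes most genes do not change. The median log2 fold change, plus Dox over minus Dox, was −0.22 over the replication genes and 0.00 over all tested genes. Of the 13964 protein-coding genes tested, 4452 fell and 4691 rose, with a median of 0.019. The balance depends on the scaling: with libraries scaled by size only, 17 fell and 16 rose (16.2% and 43.6% of all tested genes), the median was −0.0085 and the median of all tested genes moved to 0.22. In 31 of the 47 genes (66.0%) both plus Dox libraries lay below both minus Dox libraries, and in 7 (14.9%) both lay above, where 38.3% and 38.7% of all tested genes did so and 77.0% did either. Changes were small: 5 genes fell and 1 rose by at least 0.5 on the log2 scale, where 13.3% and 15.8% of all tested genes did.

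In the other fits, too, more of the 47 fell than rose. Removing a smooth trend on GC content, length and abundance left 22 that fell and 8 that rose, against 25.0% and 29.5% of all genes fitted. DESeq2 gave 27 and 5 (24.2% and 23.6%), and keeping all low genes gave 27 and 6 (16.2% and 15.4% of 32175 genes). Without minus Dox replicate 1, 26 fell and 7 rose (27.2% and 26.1%), and without minus Dox replicate 2, 28 fell and 4 rose (25.9% and 24.7%). Without plus Dox replicate 1, 24 fell and 4 rose (22.6% and 22.3%), and without plus Dox replicate 2, 25 fell and 5 rose (23.1% and 22.4%).

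**Figure D1:**
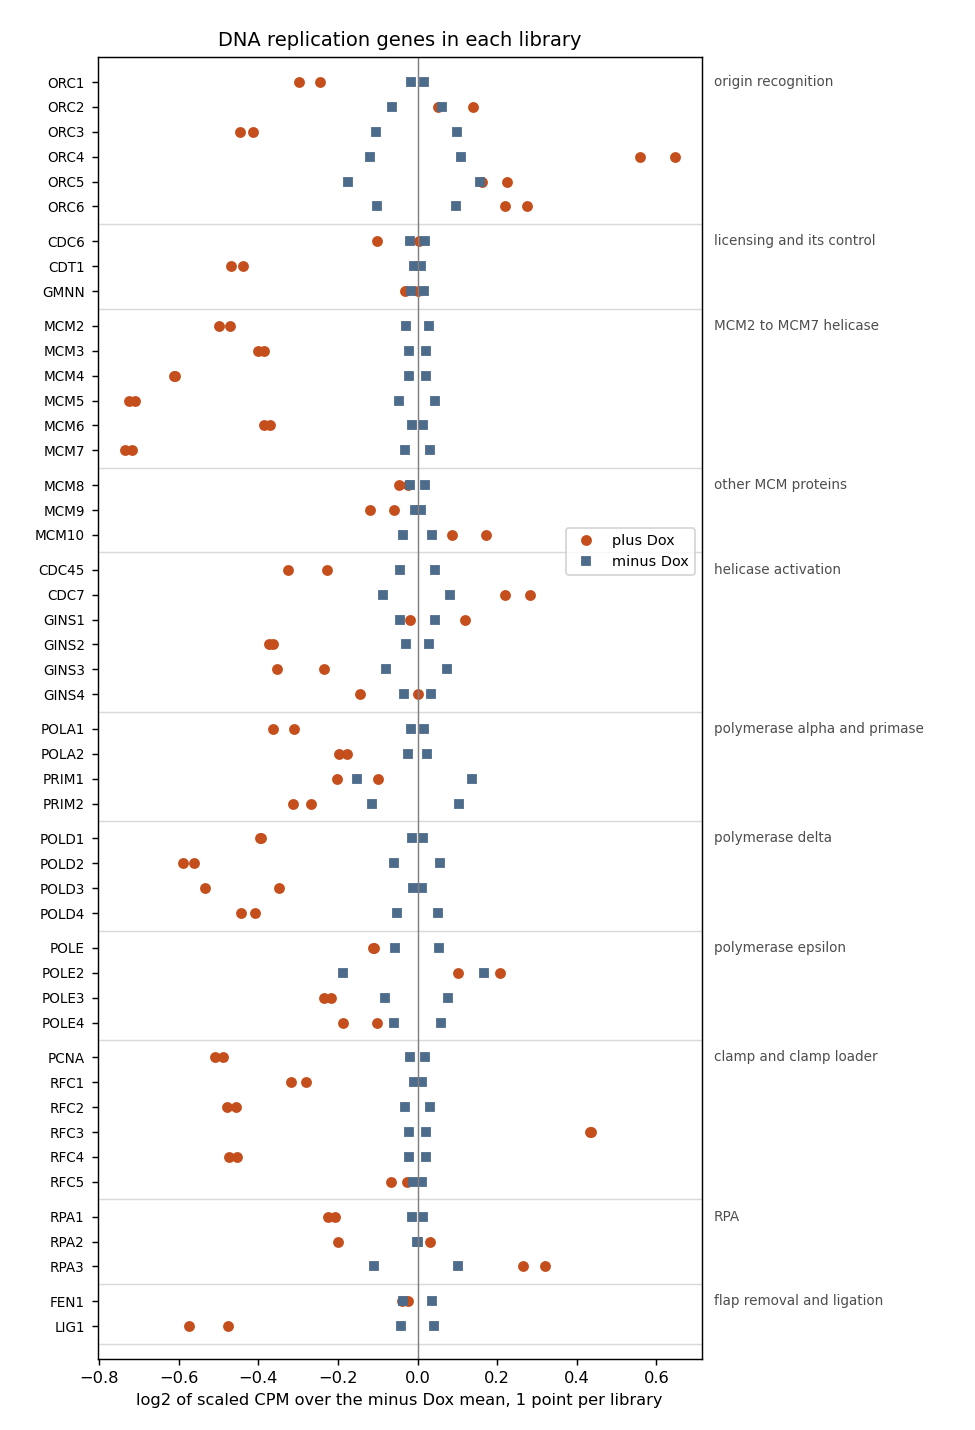
Each row is a replication gene, and each point is a library, placed at the log2 of its TMM-scaled CPM over the mean of the minus Dox libraries. Circles are plus Dox and squares minus Dox. Both plus Dox circles lie left of both squares in 31 of 47 genes, MCM2 to MCM7 and polymerase delta among them, and right of both in 7, with ORC4 farthest right.

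The 4 libraries held 31104964 to 40526912 counts. FOS, whose count may include reads of A-FOS, had 49.8 ± 1.64 CPM in plus Dox and 1.44 ± 0.113 CPM in minus Dox (SD, n = 2 each). JUN, an AP-1 partner of FOS, and MYC, a growth-promoting factor, fell by 1.79 and 1.56 on the log2 scale. All 6 epithelial markers checked were detected and summed to 6290 and 6490 CPM in plus Dox and to 12600 and 13000 CPM in minus Dox. They were not alike: KRT7 averaged 526 CPM in plus Dox and 4544 CPM in minus Dox, EPCAM 2.12 and 3.49 CPM, and CDH1 did not pass. KRT8 and KRT18 fell by 0.53 and 0.38 on the log2 scale with TMM but lay at 0.26 and 0.35 with the trend removed. The 5 leukocyte markers summed to 1.79 and 1.82 CPM in plus Dox and to 3.37 and 3.47 CPM in minus Dox, with CD3E at 0 in every library. The 4 endothelial markers summed to 0.805 and 1.19 CPM in plus Dox and to 1.54 and 1.63 CPM in minus Dox. Among them VWF was higher in plus Dox (0.57 against 0.044 CPM), whereas PECAM1 and CDH5 were lower. The 5 fibroblast markers summed to 38.9 and 40.5 CPM in plus Dox and to 42.2 and 48.7 CPM in minus Dox, mostly COL1A1, while COL1A2 and DCN were near 0. In bulk RNA, fewer cells in a phase of the cell cycle and less RNA per cell cannot be told apart.

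Promoters are shown for genes of both directions, because E2F factors are textbook regulators of these genes and A-FOS acts on AP-1. The windows printed are examples and do not stand for all windows searched. RefSeq windows (GRCh38.p14, 250 bases before to 50 after the annotated start) were matched by symbol for 41 of the 47 genes. MCM4, MCM5, GINS4, POLD3, RPA2 and RPA3 had no window. Where a gene had alternative starts listed, the window used was the one near which most annotated transcripts began. The searched letters were TTTNGCGC and TTTCCCGC, both E2F-type, TGANTCA, the AP-1 type, and CCAAT, on both strands. Matches may overlap, and overlapping matches are counted separately. Capitals mark E2F-type or AP-1-type matches. MCM3 (chr6:52284693-52284992, minus strand), MCM6 (chr2:135876394-135876693, minus strand) and PCNA (chr20:5126573-5126872, minus strand) fell, and RFC3 (chr13:33817899-33818198, plus strand) and ORC4 (chr2:148020688-148020987, minus strand) rose.
MCM3: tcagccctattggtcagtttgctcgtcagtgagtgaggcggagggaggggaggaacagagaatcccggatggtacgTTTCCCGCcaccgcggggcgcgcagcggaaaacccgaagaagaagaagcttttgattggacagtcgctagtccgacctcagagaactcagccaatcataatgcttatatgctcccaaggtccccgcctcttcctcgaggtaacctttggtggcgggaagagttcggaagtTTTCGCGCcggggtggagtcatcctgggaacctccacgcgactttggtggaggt
MCM6: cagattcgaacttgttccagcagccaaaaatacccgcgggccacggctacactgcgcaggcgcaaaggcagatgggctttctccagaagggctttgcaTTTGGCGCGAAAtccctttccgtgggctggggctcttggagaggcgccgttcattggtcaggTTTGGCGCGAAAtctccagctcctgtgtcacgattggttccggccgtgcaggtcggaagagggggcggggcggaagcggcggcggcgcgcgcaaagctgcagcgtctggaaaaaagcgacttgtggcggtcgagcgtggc
PCNA: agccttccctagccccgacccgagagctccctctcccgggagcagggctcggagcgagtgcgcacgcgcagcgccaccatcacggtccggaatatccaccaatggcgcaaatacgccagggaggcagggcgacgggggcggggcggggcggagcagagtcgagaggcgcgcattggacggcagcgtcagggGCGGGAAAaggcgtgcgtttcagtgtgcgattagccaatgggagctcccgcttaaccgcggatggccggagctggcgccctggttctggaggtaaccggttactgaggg
RFC3: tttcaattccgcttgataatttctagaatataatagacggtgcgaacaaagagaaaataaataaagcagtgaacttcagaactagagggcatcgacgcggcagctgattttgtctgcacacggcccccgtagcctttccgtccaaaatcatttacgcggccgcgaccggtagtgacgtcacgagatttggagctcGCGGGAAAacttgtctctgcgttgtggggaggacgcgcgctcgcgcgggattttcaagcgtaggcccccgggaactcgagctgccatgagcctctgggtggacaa
ORC4: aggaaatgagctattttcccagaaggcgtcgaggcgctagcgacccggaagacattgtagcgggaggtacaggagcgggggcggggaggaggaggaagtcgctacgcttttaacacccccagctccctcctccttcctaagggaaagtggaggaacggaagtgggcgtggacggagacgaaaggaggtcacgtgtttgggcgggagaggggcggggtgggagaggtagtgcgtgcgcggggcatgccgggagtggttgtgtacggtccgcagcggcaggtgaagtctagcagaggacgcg
The 4 E2F-type matches of MCM6 lie in a pair of identical stretches, each with overlapping matches on opposite strands, MCM3 has 1 match of each E2F-type motif, PCNA and RFC3 have 1 TTTCCCGC each, and ORC4 has none.

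The 35116 windows used for comparison include alternative starts, which were left out for the replication genes, so the sets are not alike. An E2F-type match was present in 21 of 41 replication windows (51.2%), against 3.37% of all 35116 windows of this length. It was found in 13 of 24 windows of genes that fell, 2 of 6 of genes that rose and 6 of 11 of genes that did not pass. MCM7, POLD1, POLD2, RFC2 and RFC4 are among the genes that fell without an E2F-type match, and their windows are not printed. The AP-1-type letters were found in 1 of 41 windows (2.44%), that of GINS1, against 7.71% of all windows, and in 0 of 24 windows of genes that fell. CCAAT was present in 24 of 41 (58.5%), against 34.6% of all windows. A match describes these letters in this window only.

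All 6 subunits of the replicative helicase fell, where 28.4% of all tested genes did. No other complete group of at least 4 subunits fell in full except polymerase delta. MCM7 (ENSG00000166508, chromosome 7, 100092728 to 100101940 in hg38) had 252 and 255 CPM in plus Dox, against 409.5 and 428 CPM in minus Dox. Its log2 fold change was −0.73 (SE 0.038), a level 0.604 times that of minus Dox, with an adjusted p of 2.21e-18 by edgeR. MCM5 (ENSG00000100297, chromosome 22, 35400063 to 35425430) had 129 and 130.5 CPM in plus Dox, against 207 and 220.2 CPM in minus Dox, a log2 fold change of −0.72 (SE 0.043, adjusted p = 1.16e-16). In MCM4 the counts came to 254 and 253 CPM in plus Dox, against 393 and 382 CPM in minus Dox, a log2 fold change of −0.61 (SE 0.037, adjusted p = 2.13e-16). These 3 subunits had the lowest log2 fold changes of the 6, and the groups were far apart relative to their spread.

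The other 3 helicase subunits fell less. MCM2 had 118 and 116 CPM in plus Dox, against 161 and 167 CPM in minus Dox, a log2 fold change of −0.48 (SE 0.044, edgeR adjusted p = 6.58e-12). MCM3 had 149 and 150.1 CPM in plus Dox, against 193 and 199 CPM in minus Dox, a log2 fold change of −0.39 (SE 0.041, adjusted p = 2.73e-10). In MCM6 the values were 112 and 113 CPM in plus Dox, against 148 and 145 CPM in minus Dox, a log2 fold change of −0.38 (SE 0.044, adjusted p = 2.53e-09). No library of one group overlapped the other in any of the 6. MCM2 shares 23.6% of its exon bases with a gene on the opposite strand that was not counted separately. Since the strand setting of the counting is not given, the count of MCM2 could include that gene's reads. The 6 genes also fell in every one of the 9 alternatives, though closer to 0 in some: with library size only they ranged from −0.51 in MCM7 to −0.16 in MCM6, and with the trend removed from −0.53 in MCM5 to −0.14 in MCM3.

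Together the 6 subunits took 0.109% and 0.11% of all counts in plus Dox, against 0.14% and 0.143% in minus Dox. Such a share amounts to scaling by library size only. Per kilobase of exon, MCM7 was the highest of the 6 in every library, at 57.7 ± 0.474 CPM per kb in plus Dox and 95.5 ± 3.03 in minus Dox (SD, n = 2 each). MCM5 was the lowest, at 17.7 CPM per kb in plus Dox and 29.1 in minus Dox. The order depends on exon lengths merged over all annotated transcripts, 7338 bases for MCM5, 6973 for MCM4 and 3650 for MCM3. In CPM, MCM5 (130 in plus Dox and 213.5 in minus Dox) lay above MCM2 (117 and 164) and MCM6 (113 and 147). Per kilobase, MCM3 and MCM4 swapped places: in plus Dox MCM3 had 40.9 ± 0.303 and MCM4 36.4 ± 0.0397 CPM per kb (SD, n = 2 each). In minus Dox MCM3 had 53.7 ± 1.05 and MCM4 55.6 ± 1.12 (SD, n = 2 each), with nearly equal values in replicate 2, 54.5 and 54.8. In CPM, MCM4 (253.5 in plus Dox and 387 in minus Dox) lay above MCM3 (149 and 196) in both groups. MCM7 made up 28.2% and 28.4% of the summed per-kilobase level in plus Dox, against 31.2% and 31.9% in minus Dox. MCM3 made up 20.0% and 20.1% in plus Dox, against 17.7% and 17.8% in minus Dox.

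**Figure D2:**
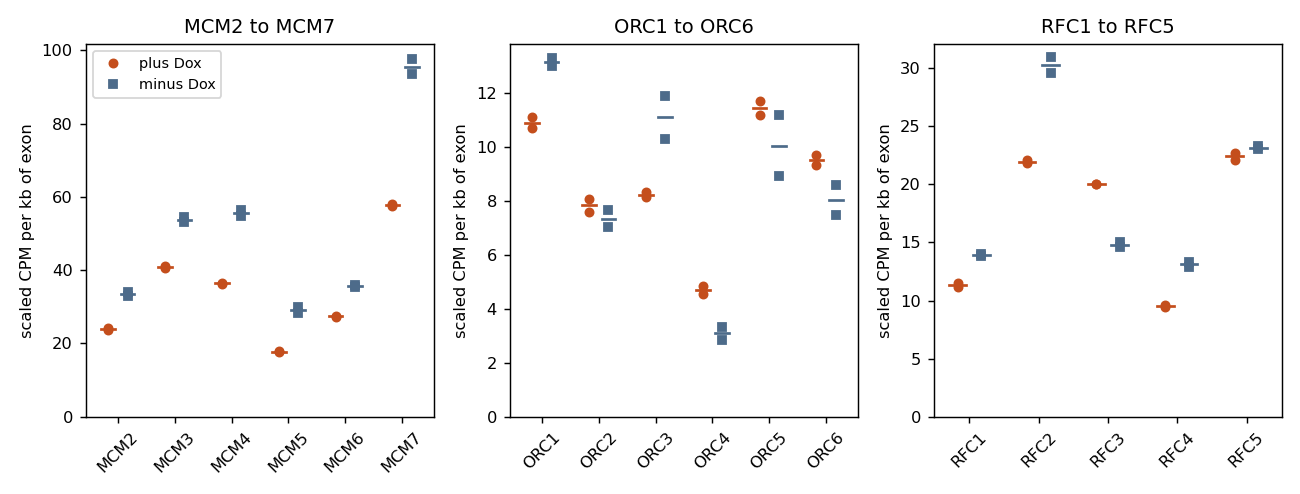
TMM-scaled CPM per kilobase of exon for the subunits of the MCM helicase, the origin recognition complex and the clamp loader. Points are libraries, short lines group means (n = 2 each), with plus Dox circles left of minus Dox squares. All 6 MCM subunits were lower in plus Dox, whereas ORC4 and RFC3 were higher beside lower ORC3 and RFC4.

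The remaining MCM proteins did not follow the helicase ring. MCM8 and MCM9, which act in homologous recombination, did not pass, with 107 ± 1.18 and 109 ± 2.12 CPM for MCM8 and 10.9 ± 0.315 and 11.6 ± 0.0863 CPM for MCM9 in plus Dox and minus Dox (SD, n = 2 each). With the trend removed, MCM9 passed as lower (−0.52, edgeR adjusted p = 4.47e-05). MCM10, which helps the helicase start to unwind, had 78.7 and 83.5 CPM in plus Dox, against 72.2 and 76.0 CPM in minus Dox. Its log2 fold change of 0.13 (SE 0.052) passed narrowly (edgeR adjusted p = 0.0346). It kept its call in only 4 of the 9 alternatives. MCM10 did not pass in DESeq2 (adjusted p = 0.0945) or in edgeR with no filter on low counts (0.0873). With a library left out, its log2 fold change ranged from 0.081 to 0.17. The count of MCM10 relative to that of MCM7 was 0.312 and 0.328 in plus Dox, against 0.176 and 0.177 in minus Dox, a pair chosen after the values were seen.

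Of the 6 subunits of the origin recognition complex, 3 rose, 2 fell and ORC2 did not pass. Over all tested genes 28.4% rose and 28.4% fell. ORC4 (ENSG00000115947, chromosome 2, 147930397 to 148021604), an ATPase-fold subunit, had 40.7 and 43.1 CPM in plus Dox, against 29.8 and 25.4 CPM in minus Dox. Its log2 fold change of 0.61 (SE 0.073, edgeR adjusted p = 6.33e-09) was the largest rise among the 47 genes with TMM. With the trend removed ORC4 still rose, but by 0.22, below RPA3 (0.37), ORC6 (0.33), FEN1 (0.31) and RFC3 (0.23). ORC3, another subunit, had 30.7 and 30.0 CPM in plus Dox, against 43.8 and 38.0 CPM in minus Dox, a log2 fold change of −0.43 (SE 0.071, adjusted p = 3.12e-06). The ratio of ORC4 to ORC3 counts within a library was 1.32 and 1.44 in plus Dox, against 0.679 and 0.668 in minus Dox. This pair, too, was chosen after the values were seen.

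ORC1, the subunit whose level changes over the cell cycle, had 33.7 and 35.0 CPM in plus Dox, against 41.0 and 41.9 CPM in minus Dox, a log2 fold change of −0.27 (SE 0.065, edgeR adjusted p = 5.24e-04). With scaling by library size only its adjusted p was 0.487, and with the trend removed 0.0843. ORC6 had 41.8 and 40.2 CPM in plus Dox, against 37.0 and 32.2 CPM in minus Dox, a log2 fold change of 0.25 (SE 0.069, adjusted p = 0.00246). ORC5 had 43.7 and 41.9 CPM in plus Dox, against 41.7 and 33.2 CPM in minus Dox, a log2 fold change of 0.20 (SE 0.075, adjusted p = 0.0251). Both rises were smaller without minus Dox replicate 2, at 0.14 for ORC6 (adjusted p = 0.0942) and 0.029 for ORC5 (0.77), and did not pass. Without plus Dox replicate 1 both missed as well (0.0518 and 0.16) with folds of 0.22 and 0.16, close to those in all libraries. ORC5 also missed in DESeq2 (0.108) and with the trend removed (0.405). ORC2 averaged 45.7 ± 1.96 CPM in plus Dox and 42.8 ± 2.59 CPM in minus Dox (SD, n = 2 each), with overlapping groups, and passed as higher with library size only (0.31, adjusted p = 5.09e-05).

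Of the licensing factors, CDT1 fell. It had 42.2 and 43.0 CPM in plus Dox, against 58.7 and 57.9 CPM in minus Dox, a log2 fold change of −0.45 (SE 0.059, edgeR adjusted p = 2.71e-08), and it fell in all 9 alternatives. Its inhibitor geminin (GMNN) had 42.3 and 43.3 CPM in plus Dox, against 43.7 and 42.7 CPM in minus Dox, and did not pass (−0.015, adjusted p = 0.852). The count of CDT1 relative to GMNN was 0.997 and 0.994 in plus Dox, against 1.34 and 1.36 in minus Dox, again a pair chosen after the values were seen. CDC6, which loads MCM rings with ORC, averaged 144 ± 7.29 CPM in plus Dox and 148 ± 2.73 CPM in minus Dox (SD, n = 2 each) and missed the threshold. With library size only, CDC6 and GMNN passed as higher, at 0.17 and 0.20, below the 0.22 by which that scaling moved the median of all tested genes.

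Among the 6 genes that switch the helicase on, 3 fell, 1 rose and 2 did not pass. Over all tested genes 28.4% fell and 28.4% rose. GINS2 had 41.5 and 41.2 CPM in plus Dox, against 54.5 and 52.3 CPM in minus Dox, a log2 fold change of −0.37 (edgeR adjusted p = 2.34e-06). CDC45 and GINS3 fell by 0.27 and 0.29 on the log2 scale (adjusted p = 0.00117 and 9.63e-04), with both plus Dox libraries below both minus Dox libraries, and both missed without plus Dox replicate 1 (0.0573 and 0.0505) and with library size only (−0.059 and −0.077). CDC45 also missed with the trend removed (−0.12, adjusted p = 0.14). GINS3 shares 10.9% of its exon bases with an antisense gene, which had at most 0.177 CPM in any library. GINS1 and GINS4 had overlapping groups and log2 fold changes of 0.051 and −0.071, neither past the test. GINS1 passed as higher with library size only (0.27, adjusted p = 4.48e-05). Of the exon bases of GINS4, 23.6% lie opposite another gene, which had at most 0.187 CPM in any library. The kinase CDC7 had 26.2 and 27.4 CPM in plus Dox, against 23.9 and 21.2 CPM in minus Dox, a log2 fold change of 0.25 (SE 0.079, adjusted p = 0.00638). It did not pass without minus Dox replicate 2 (0.121) or plus Dox replicate 2 (0.0914), and with the trend removed it lay at −0.036.

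Polymerase delta, which extends the lagging strand, fell in all 4 subunits, where 28.4% of all tested genes fell. Its log2 fold changes lay between −0.58 and −0.39. POLD2, an accessory subunit that joins the others, had 102 and 104 CPM in plus Dox, against 147 and 159 CPM in minus Dox, a log2 fold change of −0.58 (SE 0.046, edgeR adjusted p = 3.79e-13). The catalytic subunit POLD1 had 83.8 and 84.1 CPM in plus Dox, against 111 and 109 CPM in minus Dox, a log2 fold change of −0.39 (SE 0.047, adjusted p = 5.65e-09). POLD3 and the small subunit POLD4 fell by 0.44 and 0.43 on the log2 scale. No groups overlapped in any of the 4. POLD1, POLD2 and POLD3 fell in all 9 alternatives, and POLD4 missed with library size only (adjusted p = 0.0567). POLD4 shares 21.3% of its exon bases with another gene on its strand, which had at most 0.293 CPM in any library.

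Polymerase epsilon, which copies the leading strand, changed less, and its direction depends on the scaling. The catalytic subunit POLE had 191 and 192 CPM in plus Dox, against 199 and 215 CPM in minus Dox, a log2 fold change of −0.11 (SE 0.042, edgeR adjusted p = 0.0228). It passed as higher with library size only (0.10) and with the trend removed (0.18). It also missed without either plus Dox library (0.171 and 0.143) or without minus Dox replicate 2 (0.154). POLE3, a histone-fold subunit, had 98.0 and 99.2 CPM in plus Dox, against 122 and 109 CPM in minus Dox (−0.22, adjusted p = 2.11e-04), but lay at −0.0085 with library size only and −0.015 with the trend removed. POLE2 and POLE4 did not pass, at 0.16 and −0.14. POLE2 passed as higher with library size only (0.38, adjusted p = 0.00119) and without minus Dox replicate 1 (0.33, adjusted p = 0.00449) and POLE4 as lower without minus Dox replicate 2 (0.0118). The count of POLE relative to POLD1 was 2.28 in both plus Dox libraries, against 1.79 and 1.96 in minus Dox, a pair chosen after the values were seen.

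In the primer-making complex 3 of 4 genes fell, where 28.4% of all tested genes did. The catalytic subunit POLA1 had 71.6 and 69.0 CPM in plus Dox, against 89.8 and 87.7 CPM in minus Dox, a log2 fold change of −0.34 (SE 0.051, edgeR adjusted p = 5.65e-07), and it fell in all 9 alternatives. POLA2, its regulatory subunit, had a log2 fold change of −0.19 (adjusted p = 0.00154) but 0.029 with library size only. POLA2 shares 35.1% of its exon bases with another gene on its strand. That gene was not counted separately, so the count of POLA2 could include its reads. The large primase subunit PRIM2 had 17.1 and 16.5 CPM in plus Dox, against 22.1 and 19.0 CPM in minus Dox (−0.29, adjusted p = 0.00587), and missed without minus Dox replicate 1 (0.101) or plus Dox replicate 2 (0.0533). With library size only it lay at −0.072 (0.51). The catalytic primase subunit PRIM1 had 32.0 and 34.3 CPM in plus Dox, against 40.5 and 33.1 CPM in minus Dox, and did not pass (adjusted p = 0.0972). It passed as lower without minus Dox replicate 2 (2.32e-04) and with the trend removed (−0.22, adjusted p = 0.0056). PRIM1 shares 16.2% of its exon bases with another gene on its strand. That gene, too, was not counted separately, so the count of PRIM1 could include its reads.

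The clamp PCNA had 231 and 234 CPM in plus Dox, against 333 and 324 CPM in minus Dox, a log2 fold change of −0.50 (SE 0.038, edgeR adjusted p = 8.79e-14). Per kilobase of exon it was the most abundant of the 47 genes in both groups, at 158 ± 1.57 CPM per kb in plus Dox and 223 ± 4.38 in minus Dox (SD, n = 2 each). With the trend removed it lay at −0.015 and did not pass (adjusted p = 0.70). Its 3 annotated pseudogenes held 4 counts over all libraries.

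In the clamp loader RFC1, RFC2 and RFC4 fell, RFC5 did not pass and RFC3 rose. Over all tested genes 28.4% fell and 28.4% rose. RFC3 (ENSG00000133119, chromosome 13, 33818049 to 33966558), a small subunit, had 57.4 and 57.5 CPM in plus Dox, against 43.1 and 41.9 CPM in minus Dox, a log2 fold change of 0.44 (SE 0.059, edgeR adjusted p = 6.55e-08), or 0.23 with the trend removed. RFC4, another small subunit, had 28.3 and 28.7 CPM in plus Dox, against 39.9 and 38.8 CPM in minus Dox, a log2 fold change of −0.46 (SE 0.068, adjusted p = 3.15e-07). The ratio of RFC3 to RFC4 counts was 2.03 and 2.0 in plus Dox, against 1.08 in both minus Dox libraries, for a pair chosen after the values were seen. RFC2 had 48.1 and 48.8 CPM in plus Dox, against 65.5 and 68.5 CPM in minus Dox (−0.47, adjusted p = 6.13e-09). The large subunit RFC1 fell by 0.30 on the log2 scale and missed when only library size was used (adjusted p = 0.153). RFC2, RFC3 and RFC4 kept their calls and directions in all 9 alternatives. RFC5 shares 10.7% of its exon bases with WSB2 on the opposite strand and averaged 72.9 ± 1.43 CPM in plus Dox and 75.2 ± 0.761 CPM in minus Dox (SD, n = 2 each). WSB2 itself had 181 and 180 CPM in plus Dox and 159 and 166 CPM in minus Dox.

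In the RPA trimer RPA3 rose, RPA1 fell and RPA2 did not pass, where 28.4% of all tested genes rose and 28.4% fell. RPA1, the large DNA-binding subunit, had 221 and 218 CPM in plus Dox, against 257 and 252 CPM in minus Dox (−0.22, edgeR adjusted p = 1.03e-05), but lay at −0.0008 with library size only and at 0.042 with the trend removed, where it did not pass. The small subunit RPA3 had 33.4 and 34.7 CPM in plus Dox, against 29.8 and 25.7 CPM in minus Dox, a log2 fold change of 0.29 (SE 0.074, adjusted p = 9.11e-04), and it rose in all 9 alternatives. RPA2 averaged 38.8 ± 4.38 CPM in plus Dox and 41.0 ± 0.0231 CPM in minus Dox (SD, n = 2 each) and did not pass, though it passed as higher with the trend removed (0.17). At the end of the lagging strand, the ligase LIG1 had 68.2 and 63.8 CPM in plus Dox, against 92.2 and 97.7 CPM in minus Dox, a log2 fold change of −0.52 (SE 0.052, adjusted p = 8.50e-11), and it fell in all 9 alternatives. The flap nuclease FEN1 had 183 and 181 CPM in plus Dox, against 181 and 191 CPM in minus Dox, and did not pass (adjusted p = 0.525). FEN1 passed as higher with library size only (0.18) and with the trend removed (0.31).

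**Figure D3:**
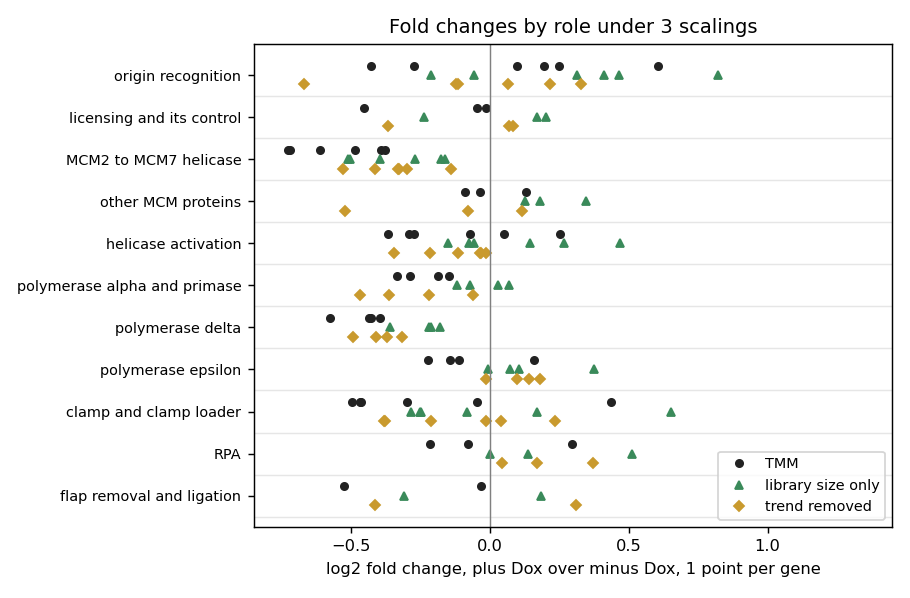
Log2 fold changes, plus Dox over minus Dox, of the 47 genes by role, 1 point per gene and scaling. Circles use TMM, triangles library size only and diamonds trend removal. MCM2 to MCM7 and polymerase delta lie left of 0 in all 3, and polymerase epsilon and RPA have points on both sides of 0.

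Of the 27 genes that fell, 16 also fell in each of the 9 alternatives: MCM2 to MCM7, CDT1, ORC3, GINS2, POLA1, POLD1, POLD2, POLD3, RFC2, RFC4 and LIG1. Of the 7 that rose, ORC4, RFC3 and RPA3 rose in each. The 9 alternatives use the same libraries and are not independent. With TMM, library size only and the trend removed alone, 16 fell and 5 rose in each. How often all tested genes kept a call in every alternative is not given here, so these counts have no share beside them. Fold changes of the 47 genes went with base composition. Pearson's r between the GC content of the longest transcript and the log2 fold change was −0.57 and Spearman's rho −0.55 over the 47 genes, which share the same libraries. Over 17974 tested genes with a value the figures were −0.16 and −0.27. The 7 genes that rose had a median GC of 41.0%, the 27 that fell 50.7% and the 13 that did not pass 43.7%. With the trend removed, r was −0.18 and rho −0.11 over the 47. Log2 mean CPM had an r of −0.41 with the fold change, and log2 exon length 0.029. The part of GC content and level in these differences was not tested further.

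**Figure D4:**
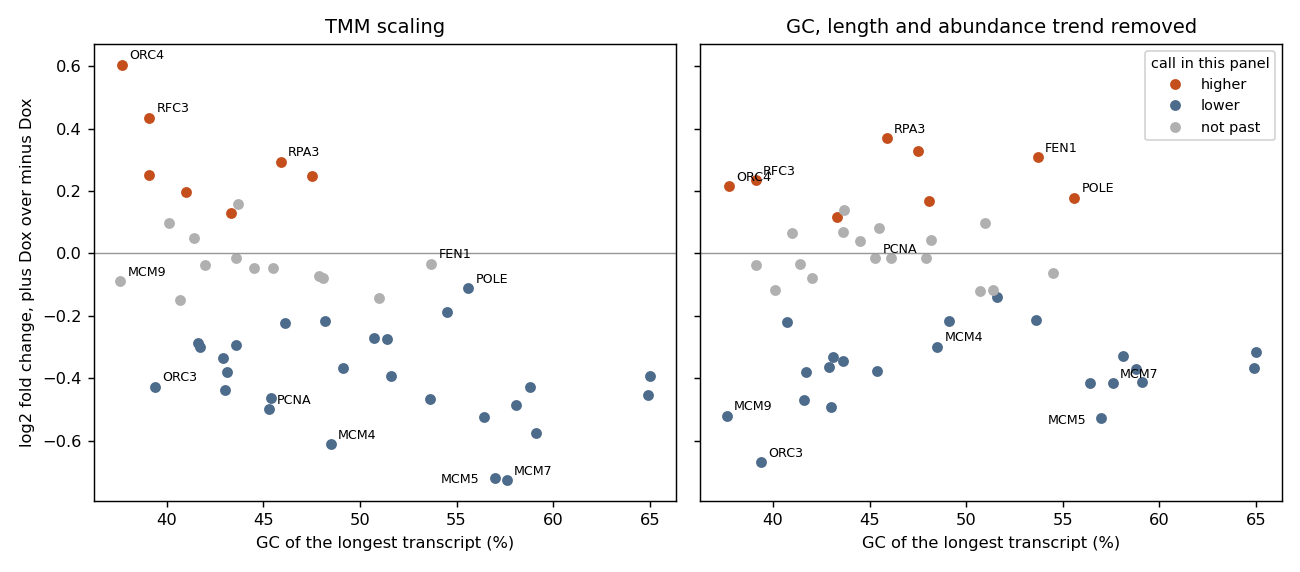
GC content of the longest transcript (%) against log2 fold change, plus Dox over minus Dox, for the 47 genes, with TMM scaling (left) and after trend removal (right). Colours give the call in each panel. With TMM the genes that rose lie at or below 47.5% GC. With the trend removed PCNA lies near 0, at −0.015, and FEN1 and POLE pass as higher.

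Genes that work beside the replication machinery were mixed. Of 35 accessory genes 10 rose, 12 fell and 13 did not pass, with a median log2 fold change of −0.027, where 28.4% of all tested genes rose and 28.4% fell. With library size only 23 rose and 6 fell, where 43.6% and 16.2% of all tested genes did. ASF1A, a histone chaperone, rose to 43.7 ± 1.72 CPM in plus Dox, against 17.9 ± 1.33 CPM in minus Dox (SD, n = 2 each, log2 fold change 1.29, edgeR adjusted p = 5.22e-17). UHRF1, which brings the maintenance methyltransferase to new DNA, had 50.4 ± 2.27 CPM in plus Dox and 90.8 ± 5.57 CPM in minus Dox (SD, n = 2 each, −0.85). The fork protection factor TIMELESS and the helicase RECQL4 fell by 0.44 and 0.48 on the log2 scale. DBF4, an activating partner of CDC7, named after its value was seen, rose by 0.38 (adjusted p = 1.66e-05). DBF4B, another such partner, also named after its value was seen, did not pass (−0.078, adjusted p = 0.246). The fold changes of ASF1A, UHRF1, TIMELESS, RECQL4 and DBF4 with the trend removed were 0.75, −0.73, −0.19, −0.38 and 0.15.

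The E2F, cyclin and nucleotide supply genes were mixed too. Of 28 tested, 12 rose, 7 fell and 9 did not pass with TMM, with a median of 0.10, where 28.4% of all tested genes rose and 28.4% fell. Without plus Dox replicate 2, 7 rose and 7 fell, where 22.4% and 23.1% of all tested genes did. Scaling by library size only gave 20 that rose and 1 that fell, where 43.6% and 16.2% of all tested genes did. RB1, which holds E2F factors in check, had 114 ± 1.71 CPM in plus Dox and 58.1 ± 1.52 CPM in minus Dox (SD, n = 2 each), a log2 fold change of 0.98 (edgeR adjusted p = 1.64e-18). TFDP2, a dimer partner of E2F proteins, rose by 0.39 on the log2 scale. Thymidylate synthase TYMS and the repressor-type E2F4 fell by 0.32 and 0.31. E2F1, named after its value was seen, had 85.5 ± 2.07 CPM in plus Dox and 78.2 ± 2.67 CPM in minus Dox (SD, n = 2 each, 0.13, adjusted p = 0.0298). RB1 lay at 0.59, TFDP2 at 0.51, TYMS at −0.04, E2F4 at −0.18 and E2F1 at 0.31 with the trend removed.

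Mitotic genes fell more often than they rose with TMM, in 17 of 30 against 7, with a median of −0.135. Over all tested genes 28.4% fell and 28.4% rose. With library size only 14 rose and 4 fell, where 43.6% and 16.2% of all tested genes did, and with the trend removed 12 rose and 5 fell, where 29.5% and 25.0% did. CDC20, an activator of the anaphase-promoting complex, had 97.4 ± 3.53 CPM in plus Dox and 165 ± 10.5 CPM in minus Dox (SD, n = 2 each, log2 fold change −0.76, edgeR adjusted p = 4.53e-16). The kinase CDK1 had 150 ± 3.98 CPM in plus Dox and 95.0 ± 8.52 CPM in minus Dox (SD, n = 2 each, 0.66). The spindle factors TPX2 and KIF20A fell by 0.45 and 0.58 on the log2 scale. CDC20, CDK1, TPX2 and KIF20A lay at −0.45, 0.30, −0.13 and −0.42 with the trend removed. As shares of all counts, which amount to scaling by library size only, mitotic genes took 0.513% and 0.518% in plus Dox, against 0.483% and 0.482% in minus Dox. Replication genes took 0.402% and 0.403% in plus Dox, against 0.431% and 0.428% in minus Dox. No test was made of a difference between these lists.

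**Figure D5:**
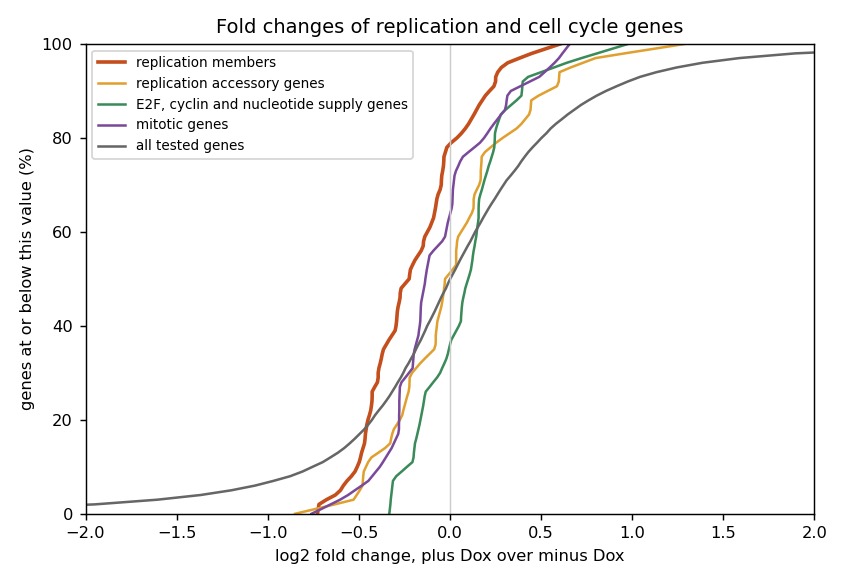
Cumulative share of genes (%) at or below each log2 fold change, plus Dox over minus Dox, for the 47 replication genes, 35 accessory genes, 28 E2F, cyclin and nucleotide supply genes, 30 mitotic genes and all 18046 tested genes. The replication curve crosses 50% at −0.22 and that of all tested genes at 0.00.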

How the data were processed

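The files hold raw counts per Ensembl gene, 1 library each, with no normalization, as deposited. Per the submitters' processing notes the build was hg38 and the tools included featureCounts 2.0.3, STAR 2.7.10b, cutadapt 4.0, DRAGEN and DESeq2 2.11.40.7, in no stated order. The sources used here do not give the annotation release or the strand setting of the counting. RNA was polyA, with stranded libraries and paired ends, per the labels' protocols.

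Symbols, gene types, exon lengths and GC came from GENCODE 29. The exon length of a gene merges the exons of all its annotated transcripts. Genes were kept with filterByExpr, scaled by TMM and tested with edgeR 4.0.16's quasi-likelihood test in R 4.3.3, with Benjamini-Hochberg adjustment over all tested genes. Levels are TMM-scaled CPM and standard errors come from the quasi F statistic. The pipeline was tested on simulated data in which a small part of the genes changed, equally often up and down. That setting could not check the choice of scaling. Counts of a replication gene in a library ranged from 373 to 16056, where counting alone gives a relative SD of 5.18% and 0.789%.

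The 47 genes and the lists were chosen with earlier results of these data known. Every one of the 47 may be named. From the other lists, the 4 with the lowest adjusted p are named, and others only where said. Alternatives were library size only, DESeq2 1.42.0, no filter, each library left out, a replicate block, and smooth trends (mgcv 1.9.3) on GC, length and abundance removed.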

Additional observations from a re-analysis of the deposited data

How the results depend on the processing

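Of the 47 replication genes, 45 kept their call and direction in DESeq2, 46 with no filter and 47 with a replicate block (7 higher and 27 lower), a term for the replicate number, which changed no call. The numbers did not visibly pair the libraries: deviations of same-numbered libraries had an r of 0.00226 over 18046 genes. With library size only, 24 kept both, and with the trend removed 28. Of genes past the test before or after, directions turned with library size only for CDC6 (0.17), GMNN (0.20), MCM8 (0.18), RFC5 (0.17), FEN1 (0.18), POLE (0.10) and POLA2 (0.029). They turned with the trend removed for CDC7 (−0.036), POLE (0.18), RPA1 (0.042), RPA2 (0.17) and FEN1 (0.31). Fold changes past no threshold in either fit turned too, with library size only MCM9 (0.13), GINS4 (0.15), PRIM1 (0.068), POLE4 (0.073) and RPA2 (0.14), and with the trend removed ORC2 (−0.12), CDC6 (0.083), GMNN (0.069), GINS1 (−0.034), POLE4 (0.098) and RFC5 (0.039). With library size only, called genes were 7865 higher and 2925 lower over all tested genes, 16 and 17 over replication genes, 23 and 6 over accessory genes, 20 and 1 over E2F, cyclin and nucleotide supply genes and 14 and 4 over mitotic genes, and the replication median was −0.0085. With the trend removed that median was −0.12, and 12 mitotic genes rose and 5 fell. Leaving out each library in turn gave 4246 to 4952 higher and 4318 to 5170 lower over all tested genes, and 4 to 7 higher and 24 to 28 lower over replication genes, with medians of −0.30 to −0.21. It gave 9 to 12 higher and 10 to 14 lower accessory genes, 7 to 10 higher and 5 to 8 lower E2F, cyclin and nucleotide supply genes, and 6 to 7 higher and 12 to 16 lower mitotic genes. Leaving out 1 library also turned 6 fold changes that did not pass with all libraries, which ranged from −0.10 to 0.0003 for CDC6, −0.040 to 0.0003 for GMNN, −0.021 to 0.12 for GINS1, −0.15 to 0.0006 for GINS4, −0.019 to 0.33 for POLE2 and −0.20 to 0.029 for RPA2. Beyond the scalings' own construction, the cause was not tested. In fits with 1 library left in a group, that library is assumed to vary like the others.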
